A study of Homo sapiens with 4 samples.

Results

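Positions of RNA 3′ ends were summarised by the authors, library by library, as rows that each pool the 3′ ends of 1 unnamed feature, and the rows described here are those with 100 or more ends. They number 3821 of the 10333 rows in the 4 libraries. They were chosen by the count alone, so their counts are given as a description and the positions of the ends are what was compared. The samples were K562 cells, an established line from a chronic myeloid leukaemia, induced with doxycycline at 1 µg/ml and harvested at day 4. In 2 of them the SF3B1 genotype was wild type (WT) and in the other 2 it was SF3B1K700E (K700E). All 4 received doxycycline, and RNA was taken from chromatin isolated in the presence of α-amanitin and then depleted of polyadenylated and ribosomal RNA. No parental or uninduced cells are among these samples. The labels do not say whether a genotype is 1 clone or whether replicates were separate cultures. A p-value here sets a difference against those under exchanged labels or signs of the samples, and the spread between samples may be technical.

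RNA polymerase II adds nucleotides at the 3′ end of the RNA it makes, so the 3′ end of a nascent RNA still held by the polymerase marks how far that polymerase had travelled. α-Amanitin binds the polymerase and blocks its forward movement, which holds the ends in place during isolation. SF3B1 belongs to the U2 snRNP, where it holds the intron around its branch point, and K700E is a substitution of that protein that recurs in myeloid neoplasms. Splicing is carried out largely while the RNA is still being made, and the series' title names elongation by RNA polymerase II as its subject. A 3′ end in chromatin RNA can also come from a spliced-out intron, a cleaved RNA or a broken one, and these cannot be told apart from ends held in a polymerase in such a table.

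For each row the tables list how many ends it holds and where they lie on a scale from 0 to 1: their mean, median, smallest and largest position and their standard deviation. The feature is not named in the sources used here, nor is the end from which the fraction counts, so positions are described as low or high and not as early or late in a gene. The rows bear no gene name or coordinate. They were therefore not matched between libraries, and a row of 1 library may or may not have a counterpart in another. Whether the same genes fill the rows of the WT and the K700E libraries was not tested.

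Depth differed between the libraries. The WT libraries held 412065 and 292576 ends in 2174 and 2021 rows, and the K700E libraries 223997 and 608736 ends in 1929 and 4209 rows. K700E replicate 2 was thus the deepest and K700E replicate 1 the shallowest. Rows with 100 or more ends numbered 949 and 720 in WT, against 610 and 1542 in K700E. They took 87.9% and 81.9% of all ends in WT, against 77.1% and 82.0% in K700E, with 95% Wilson intervals from 76.96 to 77.3% for the lowest share and from 87.8 to 88.01% for the highest. The labels mention no molecular identifiers, so intervals and standard errors cover counting error only. As a check of the cell line, 7 to 9 of 10 erythroid and K562 markers had reads in the intron tables of each library (1125 to 4350 reads summed over the list), against 2 or 3 of 7 epithelial markers (19 to 44 reads). TFRC, the transferrin receptor, and BCR, the fusion partner of ABL1 in this leukaemia, gave most of the erythroid list's reads, and both are also expressed in many other cell types. Without them the other 8 markers summed to 141 and 329 reads in WT and to 53 and 229 with K700E. GATA1, an erythroid transcription factor, had 4 to 11 reads, and KLF1, another, was at 0 in every library. PTPRC, the leukocyte antigen CD45, had 513 to 1218 reads. The labels call the cells epithelial; in K700E replicate 1 the 53 reads of the narrower erythroid markers and the 44 of the epithelial ones are too close to tell the cell type from these lists.

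The number of ends per row fell off steeply within the chosen rows. The median row held 241 and 216.5 ends in the WT libraries and 196.5 and 212 in the K700E libraries. Rows with 1000 or more ends numbered 54 and 31 in WT, against 20 and 63 in K700E. The 10 deepest rows took 8.03% and 10.7% of the ends of the chosen rows in WT, against 9.997% and 5.86% in K700E. WT replicate 2 had the deepest single row, with 8372 ends, or 3.49% of its chosen ends. In that row the ends averaged 0.45, with a median of 0.40 and a standard deviation of 0.29. The deepest row held 3471 ends in WT replicate 1 (mean 0.52, median 0.63), 2761 in K700E replicate 1 (mean 0.44, median 0.40) and 4707 in K700E replicate 2 (mean 0.41, median 0.36). The ends of all 4 of these rows reached from 0.01 or lower to 1.00, and the median lay above the mean only in that of WT replicate 1. Just inside the limit, rows with 100 to under 110 ends had median mean positions of 0.47, 0.47, 0.50 and 0.47 in WT replicates 1 and 2 and K700E replicates 1 and 2. Just outside it, rows with 90 to under 100 ends stood at 0.50, 0.47, 0.49 and 0.47.

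The typical row had its ends centred slightly below the middle of the feature in both genotypes. The median over rows of the mean position was 0.46 in WT replicate 1 and 0.48 in WT replicate 2. It was 0.46 in K700E replicate 1 and 0.47 in K700E replicate 2. The genotypes overlap: 0.47 ± 0.0141 in WT against 0.465 ± 0.00707 in K700E (SD, n = 2 each). The difference of -0.005 was smaller than the replicate spread (two-sided exact permutation test, p = 1). With 2 samples against 2 this test cannot give a p under 0.333, and the files hold positions to 2 decimals, so a shift of 0.01 is at the limit of what they resolve. With the mean over rows in place of the median the difference was -0.0112, and both K700E libraries then lay below both WT libraries (exact permutation test, p = 0.333). The difference of the medians turned to 0.005 when WT replicate 2 was left out.

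**Figure D1:**
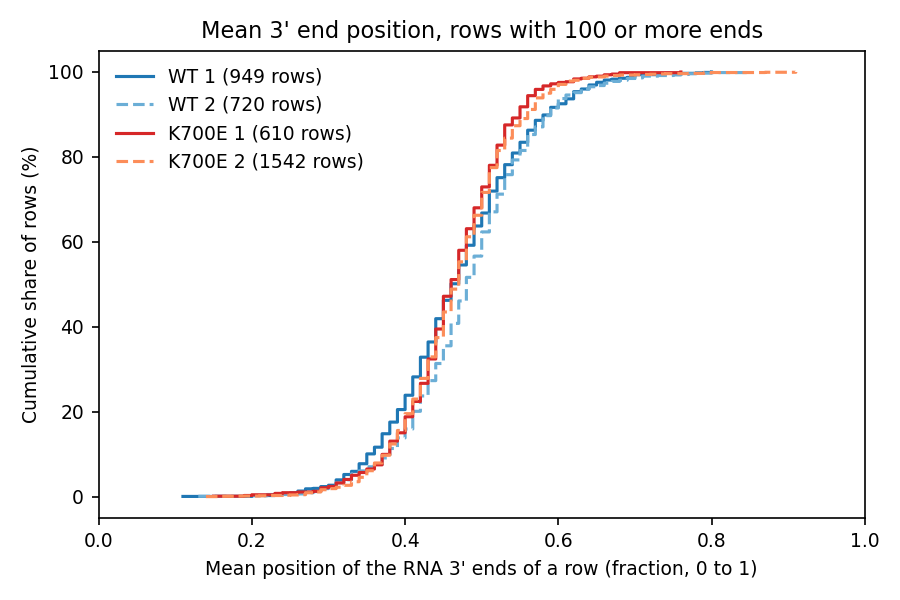
Cumulative share of rows (percent, vertical axis) by the mean position of their RNA 3′ ends (fraction, horizontal axis), 1 line per library, rows with 100 or more ends only. Rows with a mean under 0.4 take 20.5% in WT replicate 1, more than in K700E (15.1% and 15.6%). In WT replicate 2 they take 13.9%, less than in both K700E libraries. Rows under 0.5 take 63.8% and 56.7% in WT, against 68.0% and 66.3% in K700E. The red and orange K700E lines also lie above the blue WT lines at a mean of 0.6. Above 0.6 lie 2.46% and 2.92% of K700E rows, against 7.48% and 6.25% of WT rows.

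Rows with a mean under 0.5 outnumbered those above it in every library. They made up 63.8% and 56.7% of rows in WT, against 68.0% and 66.3% in K700E. Each row's mean is known to a standard error of about 0.02, the row's standard deviation divided by the square root of its number of ends: the median row had 0.0179 and 0.0181 in WT, against 0.0194 and 0.0186 in K700E. Over all 4 libraries, 1799 rows lay more than 2 such errors below 0.5, 690 lay more than 2 above it and 1332 lay within 2. Rows lay on both sides of the middle in each library, and those more than 2 errors above it were the smaller group: 205 and 179 in WT, against 74 and 232 in K700E. As shares of each library's rows these were 21.6% and 24.9% in WT, against 12.1% and 15.0% in K700E. The genotypes do not overlap in that share, which was not tested.

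The median position within a row was likewise below the middle and scattered more widely. The median over rows was 0.45 and 0.47 in WT, against 0.44 and 0.45 in K700E. The libraries of the genotypes overlap, at 0.46 ± 0.0141 in WT against 0.445 ± 0.00707 in K700E (SD over 2 libraries each), a difference of -0.015 (two-sided exact permutation test, p = 0.667). It was 0 among rows with at least 200 ends. With rows weighted by their ends it was -0.0135, and both K700E libraries then lay below both WT libraries (exact permutation test, p = 0.333). Mean and median went together from row to row, with a Spearman coefficient between 0.932 and 0.943 within each library. Coefficients over rows are given as a description: the rows of a library share its preparation, and both values come from the same ends. The lowest and highest row means were 0.11 and 0.80 in WT replicate 1 and 0.13 and 0.85 in WT replicate 2. They were 0.15 and 0.76 in K700E replicate 1 and 0.14 and 0.91 in K700E replicate 2.

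Rows at those extremes did not resemble the typical row. The lowest row of WT replicate 1 held 505 ends with a median of 0.08 and a standard deviation of 0.13, so its ends were gathered near 0, although the highest of them reached 0.94. The lowest row of K700E replicate 2 was of the same kind: 118 ends with a median of 0.05, the largest at 0.95. The highest row of K700E replicate 2 held 116 ends with a median of 0.92 and a standard deviation of 0.09, its lowest end lying at 0.09. The highest row of WT replicate 1, with 281 ends, was narrower still. Its standard deviation was 0.07 and its ends spanned only 0.56 to 0.97, the one among these extreme rows whose ends left the lower part of the feature empty.

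Within the typical row the ends were spread over nearly the whole feature. The median standard deviation was 0.28 and 0.27 in WT, against 0.27 and 0.28 in K700E, the same average in both genotypes (difference 0; exact permutation test, two-sided, p = 1). Ends laid evenly from 0 to 1 would have a standard deviation of 0.289, so the typical row was slightly more gathered than an even layout. Rows whose listed value was above 0.29 made up 33.3% and 23.8% in WT, against 19.2% and 22.8% in K700E. Rows with tightly gathered ends were rare: those under 0.2 numbered 25 and 22 in WT, against 11 and 23 in K700E, or 81 of 3821. By library that is 2.63% and 3.06% of rows in WT, against 1.80% and 1.49% in K700E. These shares do not overlap but rest on few rows, and the difference was not tested. In ranks, standard deviation followed the mean position only weakly, with Spearman coefficients of 0.131 and 0.0566 in WT, against 0.134 and 0.0262 in K700E. By class of mean position, its median was 0.28 in every library from 0.4 to under 0.5. Under 0.4 it was 0.27 and 0.26 in WT, against 0.26 and 0.27 in K700E. At 0.6 or more it was 0.28 and 0.27 in WT, against 0.26 in both K700E libraries.

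**Figure D2:**
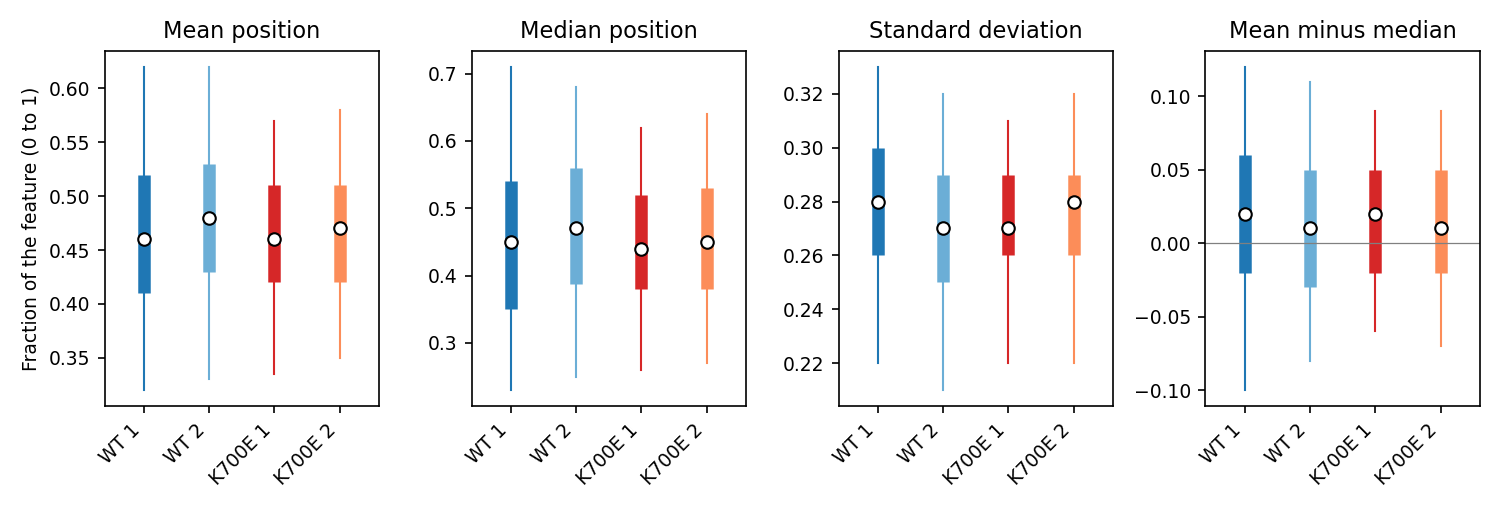
Mean position, median position, standard deviation and mean minus median of the ends of a row (fractions, vertical axes, each panel on its own scale, not starting at 0), by library. White points are medians over rows, thick bars the quartiles and thin lines the 5th to 95th percentile; the white points of the genotypes overlap in all 4 panels, while the thin lines of the mean position end at 0.62 in both WT libraries and at 0.57 and 0.58 in the K700E libraries.

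Ends came close to both edges of the feature, and closer to the high one. The smallest position had a median over rows of 0.02 in both WT libraries, 0.01 in K700E replicate 1 and 0.02 in K700E replicate 2. The largest position had a median of 1.00 in both WT libraries and 0.99 in both K700E libraries. That separation (-0.01; exact permutation test, p = 0.333, the smallest possible) is a single step of the rounding. It was 0 (exact permutation test, p = 1) at limits of 50 and of 200 ends and within rows of 100 to under 200 ends. The largest position was listed at 1.00 in 54.3% and 54.0% of WT rows and in 40.8% and 48.8% of K700E rows. The smallest was listed at 0.00 in 5.90% and 15.4% of WT rows and in 21.8% and 14.5% of K700E rows. Averaged over rows, the empty stretch at the low edge was 0.0317 and 0.0229 in WT, against 0.0180 and 0.0211 in K700E. The empty stretch at the high edge was 0.00930 and 0.0123 in WT, against 0.0128 and 0.0110 in K700E. The low gap was the larger one in all 4 libraries, by 0.0121 on average (exact sign-flip permutation test, two-sided, p = 0.125, the smallest that 4 libraries allow). On medians over rows the excess was 0.0125, and K700E replicate 1 showed none (exact sign-flip permutation test, p = 0.25). This comparison was added after the values had been seen.

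Few rows left a large part of the feature empty. Rows with ends from 0.02 or lower to 0.98 or higher numbered 499 and 440 in WT, against 421 and 1018 in K700E, or 2378 of 3821. Their shares were 52.6% and 61.1% in WT, against 69.0% and 66.0% in K700E, which do not overlap. That separation was not tested. Rows whose ends spanned under 0.8 numbered 34 in all, between 6 and 11 in each library. The median span was 0.97 and 0.98 in WT and 0.98 in both K700E libraries (difference 0.005; exact permutation test, two-sided, p = 1). That difference stayed at 0.005 at limits of 50 and of 200 ends. Averaged over rows, the span was 0.959 and 0.965 in WT, against 0.969 and 0.968 in K700E. Those averages do not overlap (difference 0.00660; exact permutation test, p = 0.333, the smallest possible).

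Edges moved with the number of ends. A larger draw from the same layout tends to reach further out, and its part in this relation was not tested. Among the chosen rows the smallest position fell with the count, with Spearman coefficients of -0.399 and -0.435 in WT, against -0.428 and -0.454 in K700E. The largest position rose with it, at 0.277 and 0.320 in WT, against 0.36 and 0.318 in K700E. In rows with 11 to under 25 ends the smallest position had a median of 0.11 and 0.10 in WT and 0.09 in both K700E libraries. In rows with 1000 or more ends it was 0.01 in 3 libraries and 0.00 in K700E replicate 2. An even layout would put the lowest end of the median chosen row at 0.00413 and 0.00460 in WT, against 0.00506 and 0.00469 in K700E. The observed medians of 0.02 in both WT libraries and in K700E replicate 2 lay above these values. In K700E replicate 1 the observed median was 0.01, which 0.00506 also gives when rounded to 2 decimals, so no difference is resolved there. Differences in the edges between libraries therefore have to be read at like counts.

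**Figure D3:**
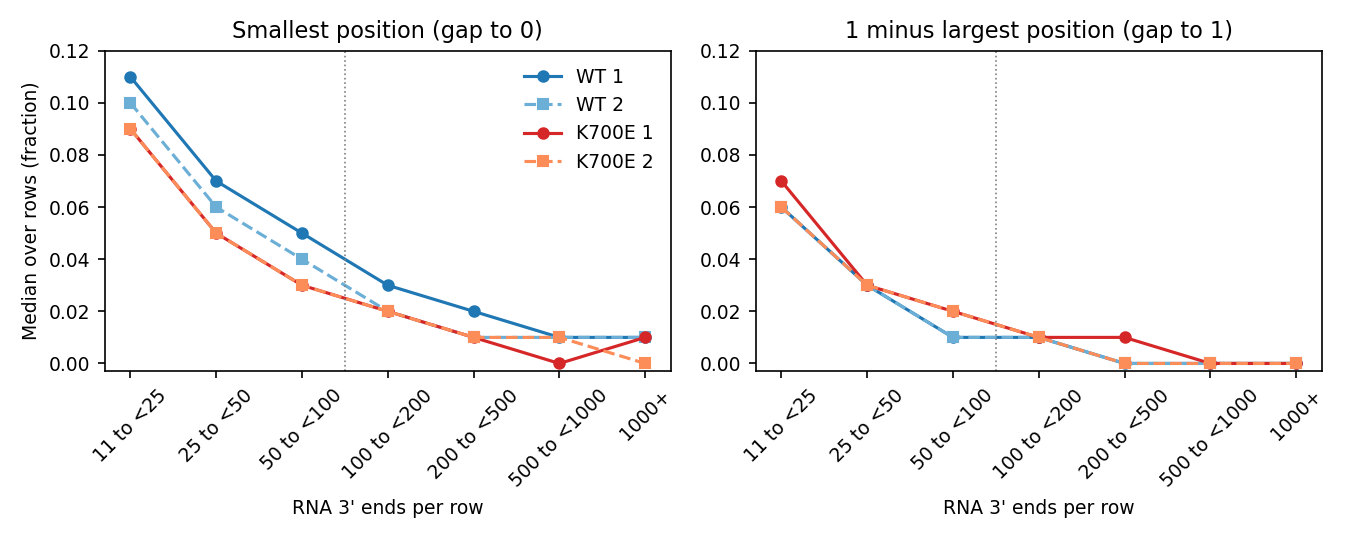
Median over rows of the smallest position (left) and of 1 minus the largest position (right), as fractions, against the number of ends per row in 7 classes, 1 line per library; the dotted line marks 100 ends. Both gaps shrink as rows deepen, and the left gap starts at 0.09 to 0.11 where the right gap starts at 0.06 to 0.07.

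The centre of the ends moved little with the count. Spearman coefficients between count and mean position were -0.107 and -0.0315 in WT, against -0.0918 and -0.0841 in K700E. They share a sign but are weak, and each rests on rows of a single library. By class, the median mean position of WT replicate 1 was 0.47 in rows with 100 to under 200 ends and 0.435 in rows with 1000 or more. The same 2 classes stood at 0.48 and 0.47 in WT replicate 2, at 0.47 and 0.435 in K700E replicate 1 and at 0.47 and 0.45 in K700E replicate 2. The deepest class was thus the lower one in every library, by 0.01 to 0.035, from as few as 20 rows. Standard deviation showed no common relation to the count, with coefficients of -0.0668 and 0.00560 in WT, against 0.0341 and 0.00434 in K700E. Mean minus median showed almost none either (0.0200 to 0.0804).

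Compared with the shallower rows of the same library, the chosen rows had lower centres. Rows with fewer than 100 ends had a median mean position of 0.49 and 0.50 in WT and 0.48 in both K700E libraries. The chosen rows were lower by 0.03 and 0.02 in the WT libraries and by 0.02 and 0.01 in the K700E libraries, a mean difference of -0.02 ± 0.00816 (SD, n = 4). The direction was shared by all 4 libraries (exact sign-flip permutation test, two-sided, p = 0.125, the smallest possible; 0.219 after Benjamini-Hochberg adjustment over 7 comparisons). The median position was likewise lower, by 0.02 on average (p = 0.125 in the exact test). The standard deviation was higher by 0.02, 0.01 and 0.01 in 3 libraries and equal in K700E replicate 1 (exact test, p = 0.25). Averaged over rows it was higher in all 4 libraries, by 0.0143 (exact test, p = 0.125). Mean minus median, taken as medians over rows, did not differ on average (0; exact test, p = 1). With rows weighted by their ends it was higher in all 4 libraries, by 0.00416 (exact test, p = 0.125). With rows divided at 50 ends the difference of medians was -0.005 (exact test, p = 0.5).

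Mean minus median gives the side on which the ends of a row trail: a positive value says that a minority of ends at high positions pulls the mean above the median. The typical row had a small positive value. Its median over rows was 0.02 and 0.01 in WT, against 0.02 and 0.01 in K700E (difference 0; exact permutation test, two-sided, p = 1). Positive rows numbered 559 and 391 in WT (58.9% and 54.3%), against 366 and 879 in K700E (60% and 57.0%). Negative rows numbered 328 and 283 in WT (34.6% and 39.3%), against 198 and 544 in K700E (32.5% and 35.3%). Both shares overlap between the genotypes. Divided by the row's standard deviation, which puts it on a scale from -1 to 1, the value had a median of 0.0714 and 0.0385 in WT, against 0.0714 and 0.0435 in K700E. The order of the libraries followed the replicate number and not the genotype, and the difference of 0.00251 was smaller than the replicate spread (exact permutation test, p = 1).

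The sign of the skew followed the centre of the row. Among rows with a mean under 0.4, 94.4% and 93% were positive in WT, against 96.7% and 94.6% in K700E. Among rows with a mean of 0.6 or more, 86.1% and 93.4% were negative in WT, against 88.2% and 90.5% in K700E. So rows centred low mostly trailed upwards and rows centred high mostly trailed downwards, in all 4 libraries. Spearman coefficients between mean and skew were -0.680 and -0.672 in WT, against -0.636 and -0.672 in K700E. Part of this relation is built in, since positions end at 0 and 1 and the mean enters both values. In the class from 0.4 to under 0.5, which held 43.2% and 42.8% of WT rows and 53.0% and 50.6% of K700E rows, the median skew was still positive (0.02 or 0.03 in each library). In the class from 0.5 to under 0.6 it was -0.02 or -0.01.

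**Figure D4:**
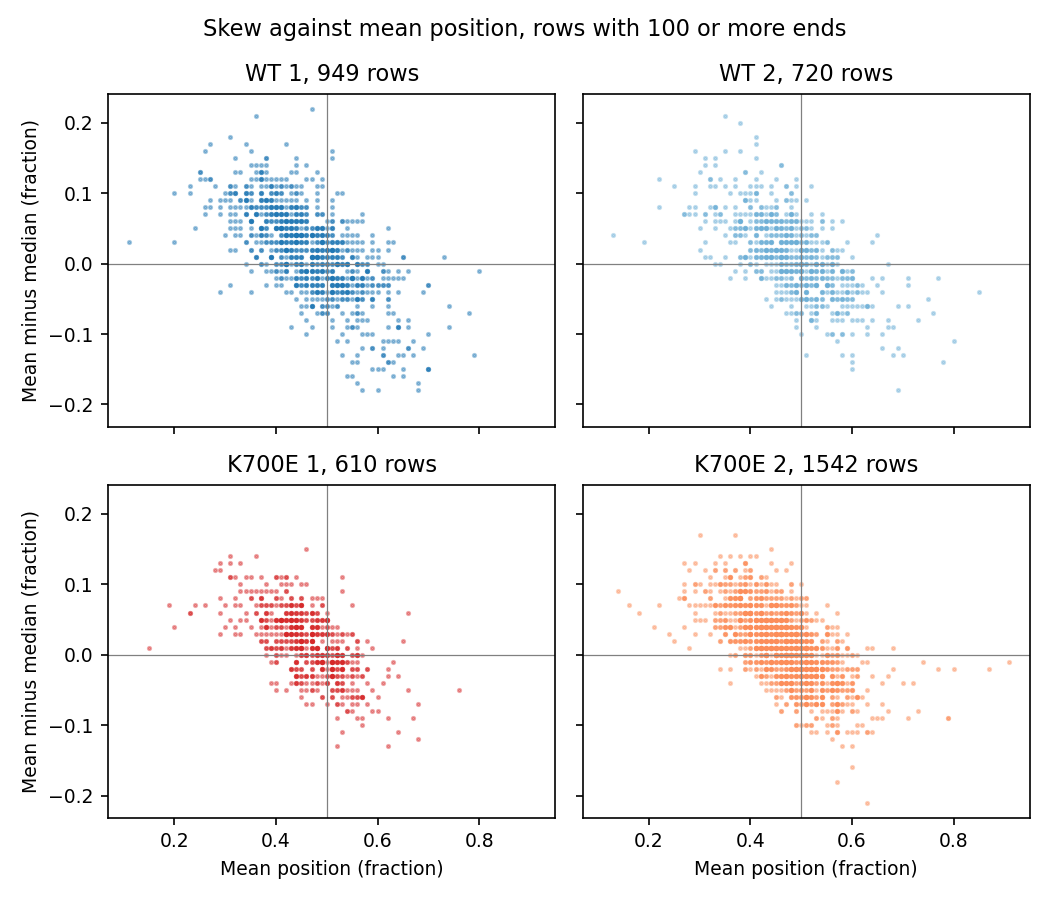
Mean minus median (fraction, vertical axis) against mean position (fraction, horizontal axis) of the ends of a row, 1 point per row with 100 or more ends, 1 panel per library. Points run from upper left to lower right in every panel. Rows with mean and median 0.1 or more apart take 15.9% and 10.1% in the WT panels, against 5.57% and 7.004% in the K700E panels. The single most negative point, at -0.21, is in K700E replicate 2.

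The summary values do not tell whether the ends of a strongly skewed row form separate groups or a long tail. The most positive row of WT replicate 1 held 226 ends with a mean of 0.47 and a median of 0.25. Its standard deviation of 0.38 equals the highest of that library and lies above that of an even layout. The most positive row of WT replicate 2 had 277 ends, a mean of 0.35 and a median of 0.14. In K700E replicate 1 the most positive row had 102 ends, a mean of 0.46 and a median of 0.31. In K700E replicate 2 it had 124 ends, a mean of 0.30 and a median of 0.13. The most negative skews were -0.18 in both WT libraries, -0.13 in K700E replicate 1 and -0.21 in K700E replicate 2. The last of these, a row of 350 ends with a mean of 0.63 and a median of 0.84, had a more negative skew than any WT row. Where rows tied at a limit (3 at the most negative value of WT replicate 1, 2 at that of K700E replicate 1 and 2 at the most positive value of K700E replicate 2), the first in the table was taken.

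Among the measures in which the genotypes separated was how much rows differed from one another. Some shares and averages for the centre and the edges, given above, separated them too. Rows with a mean under 0.5, for instance, made up 63.8% and 56.7% in WT, against 68.0% and 66.3% in K700E, a separation that was not tested. The standard deviation of the mean position among rows was 0.0916 and 0.08796 in WT, against 0.0735 and 0.0763 in K700E. Rows of the K700E libraries were thus more alike, with a difference of -0.0149 (WT 0.0898 ± 0.00257, K700E 0.0749 ± 0.00201, SD, n = 2 each), and the libraries of the genotypes do not overlap. The p is the smallest possible (exact permutation test, two-sided, p = 0.333; 0.714 after Benjamini-Hochberg adjustment over 15 comparisons), so the separation is described and not established, and the comparison was added after the values had been seen. Counting error made up 4.31% and 4.76% of the variance of row means in WT, against 7.30% and 6.47% in K700E. With it subtracted the standard deviations were 0.0896 and 0.0858 in WT, against 0.0707 and 0.0738 in K700E.

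Other measures spread less among K700E rows too, in comparisons that were likewise added after the values had been seen. Row medians had a standard deviation among rows of 0.142 and 0.132 in WT, against 0.109 and 0.116 in K700E. Within-row standard deviations scattered by 0.0382 and 0.0344 in the WT libraries and by 0.0285 and 0.0298 in K700E. The skew scattered by 0.0638 and 0.0566 in the WT libraries and by 0.0473 and 0.0506 in K700E. None of these overlapped between genotypes, and each reached the smallest p (exact permutation test, p = 0.333; adjusted 0.714). They are computed from the same rows as the spread of the means and so do not add independent evidence to it.

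Rows centred high took a smaller share in both K700E libraries, while rows centred low did not separate the genotypes. The comparisons of these shares, and of the share of strongly skewed rows, were also added after the values had been seen. Rows with a mean over 0.6 numbered 71 of 949 and 45 of 720 in WT, or 7.48% and 6.25%. They numbered 15 of 610 and 45 of 1542 in K700E, or 2.46% and 2.92%. The difference of -4.18 percentage points separated the genotypes (6.87% ± 0.871 against 2.69% ± 0.325, SD, n = 2 each; exact permutation test, p = 0.333; adjusted 0.714). Rows with a mean under 0.4 made up 20.5% and 13.9% in WT, against 15.1% and 15.6% in K700E, which overlap (exact permutation test, p = 1), and that difference of -1.86 points turned to 1.47 without WT replicate 1. Whether the high side and the low side differ from each other in this respect was not tested. The share of rows with mean and median 0.1 or more apart differed by -6.74 points in K700E (13.0% ± 4.08 against 6.29% ± 1.011; exact permutation test, p = 0.333). The difference was -3.85 points without WT replicate 1 and -9.62 without WT replicate 2.

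Some measures of depth ordered the libraries as this spread did. The median number of ends per chosen row (241 and 216.5 in WT, 196.5 and 212 in K700E) and the reads over introns (1186689 and 1012495 in WT, 395745 and 775749 in K700E, summed once per intron start) fell in the same order as the spread, from WT replicate 1 through WT replicate 2 and K700E replicate 2 to K700E replicate 1. Total ends and rows did not, since K700E replicate 2 had the most of both. The part of depth in the spread was not tested beyond classes of like count. Within rows of 100 to under 200 ends, where counts are alike, the spread of row means after subtraction of counting error was 0.0924 and 0.0898 in WT, against 0.0722 and 0.0745 in K700E. Between 200 and under 500 ends it was 0.0856 and 0.0831 in WT, against 0.0715 and 0.0721 in K700E. Both K700E libraries lay below both WT libraries in 6 of 7 classes of count. The exception was the class of 1000 or more ends (0.0914 and 0.0766 in WT, 0.0493 and 0.0814 in K700E), with 20 rows in K700E replicate 1. The 3 classes under 100 ends, which the choice of rows did not use, were among the 6: from 11 to under 25 ends the values were 0.125 and 0.115 in WT, against 0.0865 and 0.0997 in K700E. The classes come from the same 4 libraries and are not independent repeats. Which features fill the rows cannot be told from the tables, so a library whose rows come from other genes and a library whose ends lie elsewhere in the same genes cannot be told apart.

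**Figure D5:**
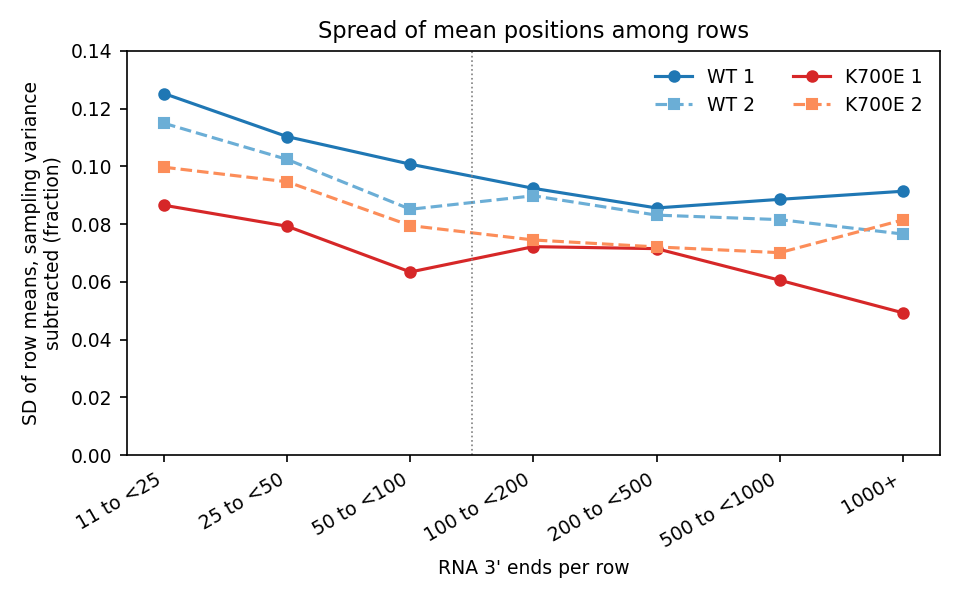
Standard deviation of the mean position among rows after subtraction of counting error (fraction, vertical axis) against the number of ends per row in 7 classes, 1 line per library; the dotted line marks 100 ends. The 2 blue WT lines lie above the red and orange K700E lines in every class except the deepest, where K700E replicate 2 (0.0814) lies above WT replicate 2 (0.0766).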

How the data were processed

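Chromatin-bound RNA of 4 K562 samples (2 WT, 2 K700E) was sequenced with long reads. Per the submitters' processing notes, reads were handled with cutadapt and minimap2 on hg38. For versions, settings and the assignment of ends to rows, the sources used here give nothing. The authors deposited, per library, row counts of RNA 3′ ends (not normalized, at least 11), positions as a fraction from 0 to 1, and their standard deviation and variance (other units), all to 2 decimals. The deposited variance equals the square of the standard deviation within rounding, and no row occurs more than once in a library. The deposited read counts of the intron tables served only for the marker check, through GENCODE 29 gene names, the highest count being taken where rows share an intron start; 88.8 to 89.04% of intron rows matched a gene. The splicing ratio was not used here.

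Rows with at least 100 ends were summarised by their median in each library, and libraries were compared by exact permutation over samples, two-sided, with Benjamini-Hochberg adjustment. Counting error of a row mean is its standard deviation over the square root of its count. Alternatives were the mean over rows, weighting by ends, limits of 50 or 200 ends, rows of 100 to under 200 ends, repeated rows counted once, each replicate left out, and exchange of labels within replicate numbers. Single rows named are, in each library, the deepest, those of lowest and highest mean, and those of most positive and most negative skew. The rows and measures were chosen with earlier results of these data known. Calculations used Python 3.11.15, pandas 2.3.3, numpy 2.4.6 and scipy 1.17.1, and were tested on simulated rows. Replicates were not pooled. The median counting error of a row mean was 0.0179 to 0.0194.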

Additional observations from a re-analysis of the deposited data

How the results depend on the processing

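The exact permutation test used here cannot pass 0.05 with 2 samples against 2, so only directions could change under it. Of 223 alternative values, 214 kept their direction, or were 0 or differed from a reported 0. The skew divided by the standard deviation turned from 0.00251 to -0.00952 at 50 ends and to -0.0111 in rows of 100 to under 200 ends, and ranged from -0.0140 to 0.0190 with a replicate left out. The difference in mean position ranged from -0.015 to 0.005 and that in the share of rows with a mean under 0.4 from -5.19 to 1.47 points with a replicate left out. The average coefficient between count and standard deviation was -0.00568, turned to 0.0596 at 50 ends, was -0.0570 at 200 ends and ranged from -0.0189 to 0.0147 with a replicate left out; the cause was not tested. The spread of row means was lower in K700E under every alternative run (-0.0171 to -0.0131). In an exact permutation with labels exchanged only within replicate numbers (a replicate block, where p cannot go under 0.5) the difference in mean position was -0.005 (p = 1) and that in the spread of row means -0.0149 (p = 0.5), and no direction changed. Same-numbered samples deviated together (r = 0.790 over 8 summary values), but with 2 per group both pairs give the same coefficient, so the numbers are not shown to pair the samples. Counting repeated rows once changed nothing, as none repeat.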

Other observations

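The number of 3′ ends did not rank the libraries as the intron tables did. Reads over introns, summed once per intron start, were 1186689 and 1012495 in WT, against 395745 and 775749 in K700E, while 3′ ends in the rows were 412065 and 292576 in WT, against 223997 and 608736 in K700E. K700E replicate 2 therefore had the most ends but fewer intron overlaps than either WT library.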
